A study of Rattus norvegicus with 64 samples.

Results

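Whole blood transcripts were compared between rats that became hyperthermic on amphetamine and rats that were heated by their environment. The amphetamine rats, called AMPH here (label Amphetamine Hyperthermic), were injected in a 22.5 C room and the heated rats, called EIH (label Saline Hyperthermic-EIH), were given saline at 39 C. The comparison holds the 10 AMPH and 14 EIH rats whose files carry the code of a sequencing project that both groups share, out of 22 AMPH, 16 EIH and 64 rats in all. The other 12 AMPH and 2 EIH rats came from projects that held no rat of the opposite group. The remaining groups were 15 rats on AMPH and 5 on saline in a 16 C room, and 6 on saline in a 22.5 C room.

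All were male Sprague-Dawley rats aged 85 to 90 days. Each was injected subcutaneously 4 times at 2 h intervals, and blood was drawn by cardiac puncture 3 h after the last dose. AMPH was d-amphetamine, at 5 mg/kg in the opening dose, 7.5 in the next and 10 in each of the last 2, and per the study's methods AMPH rats whose temperature rose too far were laid on crushed ice for a time. Drug and environment differ together between the groups, so an effect of the drug and an effect of the surrounding heat cannot be told apart here, and body temperatures were not analysed here. Globin transcripts were depleted before sequencing. In bulk blood, fewer cells of a type and less RNA per cell cannot be told apart.

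Heat damages proteins in the cytosol, and cells answer by heat-shock factor binding to heat-shock elements and switching on cytosolic chaperones such as Hsp70 and Hsp90. Unfolded protein inside the endoplasmic reticulum, where secreted and membrane proteins fold, sets off a separate program, the unfolded protein response. That program works through sensors in the reticulum membrane and the factors Atf6, Xbp1 and Atf4, and it raises the chaperones and disulfide isomerases of the reticulum. In blood, leukocytes carry both programs, and reticulocytes bring hemoglobin transcripts.

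Of the gene lists described below, the endoplasmic reticulum chaperone list had the highest median change, so the promoters of Creld2, its called gene with the larger change, and of Hspa5, which encodes the main chaperone BiP, are shown. The sequences are RefSeq's for build GRCr8, 250 bases before to 50 after the start, 5′ to 3′ along the gene, and capitals mark the endoplasmic reticulum stress element, here CCAAT and CCACG with any 9 bases between them, searched on both strands. Creld2 lies at chr7:121789134-121789433 on the plus strand, and its match begins 145 bases before the start and reads on the opposite strand. Hspa5 lies at chr3:38452766-38453065 on the plus strand, with its match 43 bases before the start.
Creld2: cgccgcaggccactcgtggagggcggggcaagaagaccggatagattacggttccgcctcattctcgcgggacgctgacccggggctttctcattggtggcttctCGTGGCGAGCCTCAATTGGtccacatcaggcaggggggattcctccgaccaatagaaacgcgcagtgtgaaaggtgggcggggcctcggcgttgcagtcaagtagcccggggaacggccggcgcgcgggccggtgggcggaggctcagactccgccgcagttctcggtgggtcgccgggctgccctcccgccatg
Hspa5: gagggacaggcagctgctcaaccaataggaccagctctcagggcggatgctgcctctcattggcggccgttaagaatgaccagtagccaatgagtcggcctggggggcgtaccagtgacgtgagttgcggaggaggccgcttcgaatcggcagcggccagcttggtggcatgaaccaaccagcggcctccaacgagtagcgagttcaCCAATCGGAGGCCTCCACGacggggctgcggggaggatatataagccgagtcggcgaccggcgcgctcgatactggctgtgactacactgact
The full element was present in the promoters of 21 of 27457 genes with a RefSeq promoter (0.076%), in 7 of the 15 endoplasmic reticulum list genes with one (46.7%) and in 0 of 41 genes of the cytosolic chaperone lists. The 7 were Calr, Canx, Creld2, Dnajc3, Hsp90b1, Hspa5 and Xbp1. A second element, ATTGG and CCACG with 1 base between and so sharing CCACG with the former, was found in Dnajb11, Herpud1 and Hyou1, and in 17 promoters overall (0.062%). The heat-shock element, here GAA, TTC and GAA with 2 bases between neighbours, was found in 8 of the 41 cytosolic chaperone promoters (19.5%), in 0 of the 15 reticulum promoters and in 218 overall (0.794%). The promoter of Pdia4, the other called gene of the list, held neither reticulum element in full. Of the 9 called genes with a RefSeq promoter, 1, Creld2, held the full element (11.1%). Such letters are a description of the window and not a measured binding site.

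Total counts per rat ran from 19055615 to 39569802, with medians of 25814395 in AMPH and 26277536 in EIH. The hemoglobin share of the counts was 2.99% to 22.7% in AMPH (median 4.13%) and 2.78% to 33.3% in EIH (median 13.8%). Adjusted for project it was lower in AMPH by 0.78 on the log2 scale (exact two-sided permutation within project, p = 0.00595, 0.0179 after adjustment over 3 tests), and it was lower in 5 of the 7 projects. The 2 series of rat IDs differed in this share, with EIH rats at 2.78% to 4.26% in the ML and JB series and 10.2% to 33.3% in the FG series. The ML and JB series held 6 of the 10 AMPH and 4 of the 14 EIH rats. Project H30622 set 2 AMPH rats of the ML or JB series (3.91% and 4.35%) against 1 EIH rat of the FG series (16.6%), so series and group cannot be told apart there, and the permutation took no account of the series. The 2 projects with the higher share in AMPH were H33741 (6.25% against 4.26%) and W26620 (3.69% against 2.78%), both of ML or JB rats. A fit with this share as a covariate is given beside the calls below. Mb, encoding myoglobin, a mark of heart muscle taken up by the needle, did not differ past the threshold (exact permutation p = 0.734). EIH replicate 12 stood apart at 9909 Mb counts, with the next highest rats at 1133 (EIH replicate 4) and 977 (AMPH replicate 2). The file name of EIH replicate 12 carries the word pool, whose meaning is not given, while its label names a single rat. Total counts did not differ past the threshold (exact permutation p = 0.239).

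Across the blood transcriptome 11 genes passed an adjusted p of 0.05, of 12157 tested (0.0905%; edgeR quasi-likelihood test with project as covariate and Benjamini-Hochberg adjustment). AMPH was higher for 10 of them (0.0823%) and lower for 1 (0.00823%). All log2 fold changes below are AMPH over EIH. The higher genes were Krt79, Plscr1, 4930503B20Rik, Ugt8, Creld2, Enkur, St3gal4, Tmco4, Tpi1 and Pdia4, and the lower gene was Aplp2. At an unadjusted p of 0.05, 1419 genes passed (11.7%). DESeq2 called 292 genes (2.4%), 218 of them higher (1.79%) and 74 lower (0.609%) in AMPH, and these included all 11. The median log2 fold change of all genes was 0.01.

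Ugt8 (ENSRNOG00000009345), which encodes the enzyme that makes galactosylceramide, separated the groups in full. Its normalized counts ran from 86.2 over a median of 155 to 437 in AMPH and from 10.8 over 46.4 to 64.2 in EIH. Every AMPH rat was above every EIH rat, with a log2 fold change of 1.81 (SE 0.25, adjusted p = 0.00631, edgeR). It passed in all 24 fits that each left out 1 rat.

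Tmco4 (ENSRNOG00000017401), a transmembrane protein gene, ran from 238 over 419 to 722 in AMPH and from 69.998 over 150 to 213 in EIH. Its log2 fold change was 1.34 (SE 0.22, adjusted p = 0.0248, edgeR). Tpi1 (ENSRNOG00000015290), the glycolytic enzyme triosephosphate isomerase, had 4499, 6211 and 11393 normalized counts as its lowest, median and highest in AMPH and 1043, 3006 and 4405 in EIH (log2 fold change 1.24, SE 0.22, adjusted p = 0.0248, edgeR). Ugt8, Tmco4 and Tpi1 were the 3 genes of 12157 (0.0247%) in which no AMPH rat overlapped an EIH rat with AMPH above, and 0 genes separated with AMPH below.

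**Figure D1:**
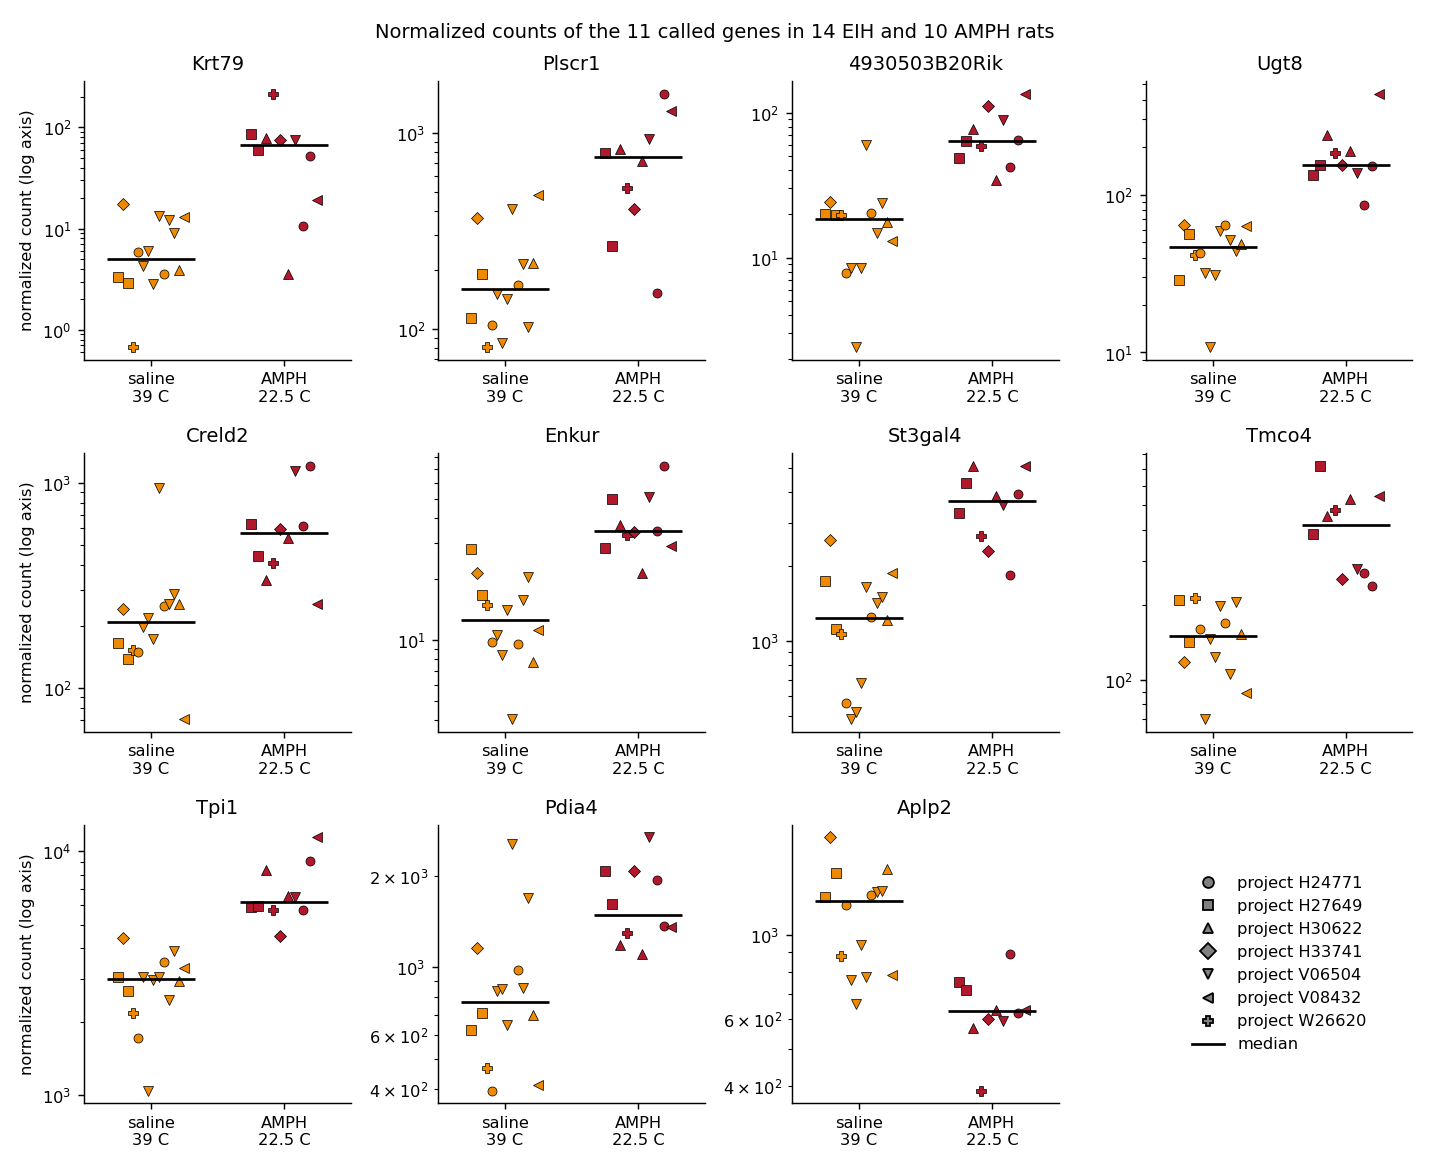
Normalized counts (log axis) of the 11 called genes in 14 EIH rats (orange) and 10 AMPH rats (red), with 1 symbol a project and black lines at the medians. Ugt8, Tmco4 and Tpi1 separate the groups in full, while 1 EIH rat reaches the upper AMPH values of Creld2 and Pdia4.

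Creld2 (ENSRNOG00000004659), a reticulum protein that rises under folding stress, ran from 258 over 569 to 1217 in AMPH and from 70.6 over 209 to 944 in EIH. Of the 14 EIH rats 10 lay below every AMPH rat, and the log2 fold change was 1.65 (SE 0.28, adjusted p = 0.0248, edgeR). Pdia4 (ENSRNOG00000006228), a protein disulfide isomerase of the reticulum, ran from 1105 over 1491 to 2676 in AMPH and from 393 over 771 to 2540 in EIH (log2 fold change 1.24, SE 0.24, adjusted p = 0.0477, edgeR). Of the EIH rats 11 lay below every AMPH rat.

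St3gal4 (ENSRNOG00000009850), a sialyltransferase that helps to build selectin ligands on leukocytes, ran from 1855 over 3685 to 5100 in AMPH and from 486 over 1236 to 2546 in EIH. Its log2 fold change was 1.45 (SE 0.27, adjusted p = 0.041, edgeR), and it was higher in 6 of 7 projects. Plscr1 (ENSRNOG00000008048), a phospholipid scramblase that interferon induces, ran from 153 over 754 to 1582 in AMPH and from 80.9 over 159 to 483 in EIH (log2 fold change 1.99, SE 0.37, adjusted p = 0.041, edgeR). For Plscr1 7 of the 10 AMPH rats lay above every EIH rat.

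Aplp2 (ENSRNOG00000047179), a relative of the amyloid precursor protein, was the called gene with lower counts in AMPH than in EIH. It ran from 389 over 629 to 889 in AMPH and from 659 over 1228 to 1805 in EIH, so that 9 EIH rats lay above every AMPH rat. The log2 fold change was -0.89 (SE 0.15, adjusted p = 0.0248, edgeR), the smallest in size among the 11.

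Krt79, Enkur and 4930503B20Rik had a mean below 100 normalized counts in each group, so they fell outside the naming rule and are named because they were called. They met the filter of 10 counts in 10 rats only with the AMPH rats included, the group in which they were high. With no filter on low counts Krt79 was called, while Enkur, 4930503B20Rik and Pdia4 were not. Krt79 (ENSRNOG00000050667), a keratin, ran from 3.55 over 67.6 to 215 in AMPH and from 0.674 over 5.04 to 17.5 in EIH. It showed the largest fitted change among the called genes, a log2 fold change of 3.36 (SE 0.57, adjusted p = 0.0248, edgeR), while 2 of the 10 AMPH rats lay within the EIH range. Enkur (ENSRNOG00000018631), which encodes enkurin, a protein of motile cilia and sperm, had medians of 34.5 in AMPH and 12.6 in EIH (log2 fold change 1.57, SE 0.29, adjusted p = 0.041, edgeR). 4930503B20Rik (ENSRNOG00000016432) had medians of 64.1 and 18.5 (log2 fold change 1.97, SE 0.38, adjusted p = 0.0477, edgeR).

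Within the 7 projects, the difference of AMPH from EIH had the fitted sign in all 7 for 10 of the 11 genes. St3gal4 was the exception, with -0.14 on the log2 scale in project H33741, where 1 rat of each group was sequenced. In that project Tpi1 and Plscr1 also differed little, at 0.03 and 0.14. Differences within projects ran from 1.11 to 2.77 for Ugt8, from 0.71 to 2.15 for Creld2, from 0.72 to 1.72 for Pdia4 and from -1.58 to -0.30 for Aplp2. Among all genes tested, AMPH was higher in all 7 projects for 282 (2.32%) and lower in all 7 for 347 (2.85%). The 11 genes were called from these same rats, so their shared sign across projects is not separate support.

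**Figure D2:**
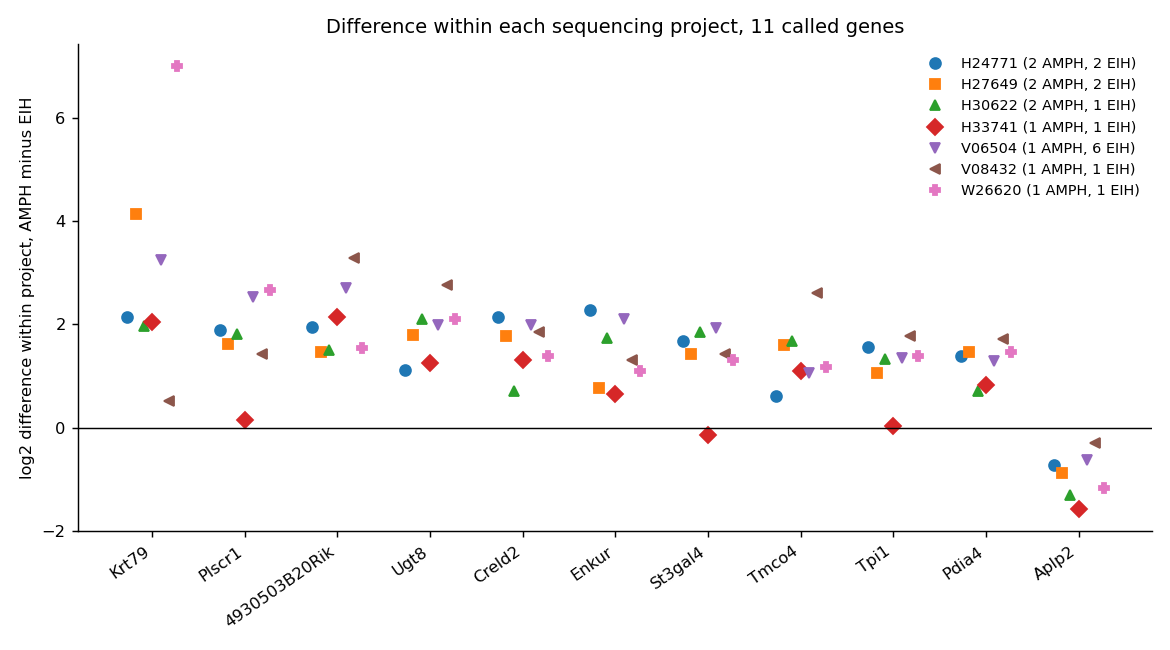
Difference of the mean log2 normalized count (plus 1) between AMPH and EIH rats within each of the 7 sequencing projects, for the 11 called genes; the legend gives the rats of each group. Values lie above 0 for the genes called higher in AMPH, except for St3gal4 in H33741 at -0.14, and below 0 for Aplp2.

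The calls changed with the rats and covariates of the fit, while each of the 11 genes kept its sign in every fit that tested it. All fits held rats of the comparison that called the genes, so the kept sign is not separate support. With 1 rat left out, Creld2 passed in 11 of 24 fits and Pdia4 in 3 of 24. With the log2 hemoglobin share as a further covariate 0 genes were called by edgeR and 715 passed an unadjusted p of 0.05. The log2 fold changes in that fit were 1.67 for Ugt8 (adjusted p = 0.217), 1.77 for Creld2 (adjusted p = 0.232), 1.33 for Pdia4 (adjusted p = 0.383) and -1.06 for Aplp2 (adjusted p = 0.217). Fits by ID series left out project H30622, which held rats of both series. In the remaining ML and JB rats (4 AMPH, 4 EIH) Creld2 differed by 1.59 (SE 0.19) and Ugt8 by 1.74 (SE 0.27). In the remaining FG rats (4 AMPH, 9 EIH) they differed by 1.98 (SE 0.47) and 1.78 (SE 0.42). No gene was called by edgeR in either subset.

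The list of 19 endoplasmic reticulum chaperone and stress genes held 2 called genes, both higher in AMPH, against 0.0823% of all genes called higher. Its median log2 fold change was 0.64, against 0.01 for all genes tested, and 14 of the 19 lay above 0, as 51.0% of all genes did. At an unadjusted p of 0.05, 10 genes of the list were higher and 0 lower, against 6.9% and 4.77% of all genes. DESeq2 called 5 of the 19, Creld2, Pdia4, Pdia6, Sdf2l1 and MANF, all higher in AMPH, against 1.79% of all genes. AMPH was higher in all 7 projects for 6 of the 19, against 2.32% of all genes.

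Among the other chaperones and folding enzymes of the list, Pdia6, another disulfide isomerase, ran from 1872 over 2713 to 4013 in AMPH and from 507 over 1329 to 2672 in EIH, with a log2 fold change of 1.09 (SE 0.28, adjusted p = 0.177, edgeR). Sdf2l1, a cofactor of BiP, differed by 0.94 (SE 0.25, adjusted p = 0.188) and MANF, a secreted survival factor that folding stress induces, by 0.94 (SE 0.28, adjusted p = 0.229). Hyou1, the large Hsp70 of the reticulum, differed by 0.82 (SE 0.29, adjusted p = 0.29) and Hsp90b1, its Hsp90, by 0.78 (SE 0.24, adjusted p = 0.249). Hspa5 ran from 4656 over 7562 to 14749 in AMPH and from 2756 over 5395 to 8376 in EIH (log2 fold change 0.64, SE 0.21, adjusted p = 0.266, edgeR). Dnajb11 differed by 0.75 (SE 0.24), Pdia3 by 0.49 (SE 0.19) and Dnajc3 by 0.35 (SE 0.17). Canx differed by 0.25 (SE 0.14), Dnajb9 by 0.25 (SE 0.19) and Herpud1 by -0.04 (SE 0.13). AMPH was higher in 3 of the 7 projects for Dnajb9 and lower in 5 of the 7 for Herpud1. These genes did not pass the edgeR test, and their ranges overlapped.

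On the side of the stress factors, Xbp1 differed by 0.66 (SE 0.36), Atf4 by -0.10 (SE 0.21), Atf3 by -0.18 (SE 0.54) and DDIT3, which encodes the death-linked factor CHOP, by -0.56 (SE 0.30). Calr, the calcium-binding lectin chaperone calreticulin, differed by -0.20 (SE 0.24). These genes were not called. A relation between the promoter elements above and the changes of the list was not tested.

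**Figure D3:**
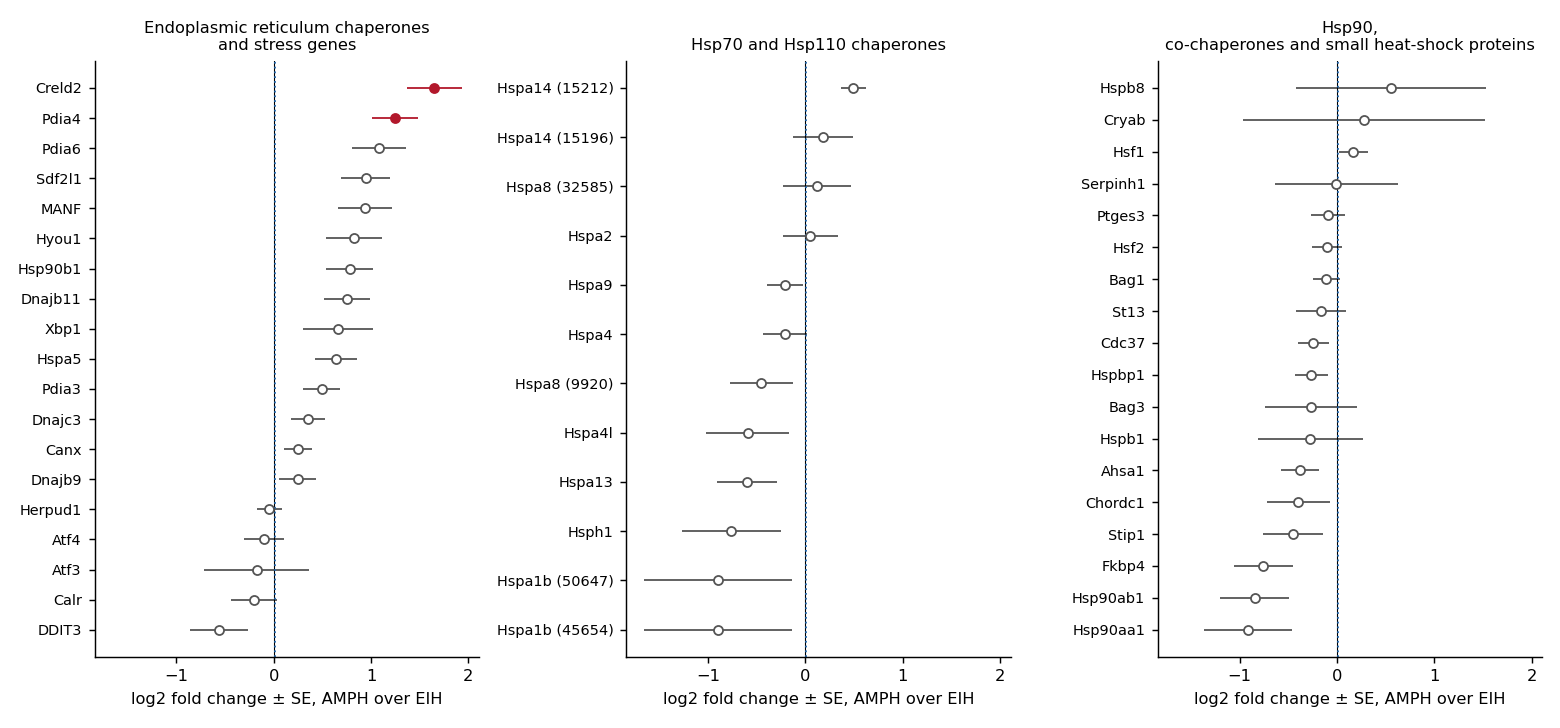
Log2 fold change of AMPH over EIH with its standard error for 3 chaperone lists; filled red points are called genes, the dotted line is the median of all genes, and bracketed numbers end the identifier where a symbol has several. Reticulum genes lie mostly above 0, led by Creld2 at 1.65 and Pdia4 at 1.24, while Hsp90aa1 and Hspa1b lie near -0.9 with wide errors.

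The cytosolic chaperones held 0 called genes. None of the 12 Hsp70 and Hsp110, 18 Hsp90 and cofactor, 10 J-domain or 10 chaperonin genes passed in edgeR. Of these lists 4, 3, 2 and 0 genes lay above 0, against 51.0% of all genes. The medians were -0.33, -0.25, -0.21 and -0.18. At an unadjusted p of 0.05, 1 gene was higher and 4 lower over the 4 lists, against 6.9% and 4.77% of all genes. DESeq2 called 1, Hspa14 (ENSRNOG00000015212), higher in AMPH by 0.49, as it called 1.79% of all genes higher.

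Hsp90aa1, the heat-inducible Hsp90, ran from 31449 over 82979 to 363277 in AMPH and from 36979 over 199337 to 588890 in EIH, with a log2 fold change of -0.91 (SE 0.45, adjusted p = 0.438, edgeR). Hsph1, an Hsp110 that helps Hsp70 to release its client, had medians of 39366 and 70362 (log2 fold change -0.76, SE 0.51, adjusted p = 0.547). Both ranges overlapped over most of their width. Hspa1b, the inducible Hsp70, is listed under 2 identifiers with identical values, so its reads cannot be assigned to either copy. Its medians were 17174 and 58338 (log2 fold change -0.90, SE 0.76, adjusted p = 0.629).

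Hspa8, the constitutive Hsp70, is listed under 2 identifiers, at -0.45 (SE 0.32) for ENSRNOG00000009920 and 0.12 (SE 0.35) for ENSRNOG00000032585, so no direction can be given. Dnajb1, the J-protein that works with it, differed by -0.23 (SE 0.29), Dnaja1 by -0.85 (SE 0.38) and Hspd1, the mitochondrial chaperonin, by -0.97 (SE 0.65). UBB, polyubiquitin, differed by -0.64 (SE 0.33), while the list of 33 proteasome and polyubiquitin genes had a median of 0.17. The cold-inducible RNA-binding genes Cirbp and Rbm3 had log2 fold changes of -0.03 (SE 0.29) and 0.01 (SE 0.33). None of these was called by edgeR or DESeq2. Of the 35 genes of the proteasome and cold-inducible lists, 4 were higher and 0 lower at an unadjusted p of 0.05. The shares of all genes were 6.9% and 4.77%.

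Hypoxia and glycolysis genes lay above 0 in 22 of 25 cases, against 51.0% of all genes. Their median was 0.34, and 0 were called by edgeR. At an unadjusted p of 0.05, 9 were higher and 1 lower, against 6.9% and 4.77% of all genes. DESeq2 called 4 of them, Pdk1, which holds pyruvate back from the mitochondrion, Pfkl, the liver-type phosphofructokinase, Pgk1 and the oxygen sensor Egln1, all higher in AMPH, as were 1.79% of all genes. Tpi1, called above, is a glycolytic enzyme outside this list. Gapdh, the most abundant of the list, differed by 0.20 (SE 0.24).

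Among the blood cell lists 0 genes were called by edgeR. The 19 T-cell genes had a median of 0.40 and 16 lay above 0, as 51.0% of all genes did. At an unadjusted p of 0.05, 3 of them were higher and 0 lower, against 6.9% and 4.77% of all genes. Cd3e, part of the T-cell receptor complex, ran from 209 over 698 to 1228 in AMPH and from 125 over 324 to 1250 in EIH (log2 fold change 0.62, SE 0.35, adjusted p = 0.485, edgeR). DESeq2 called Cd2 of this list, higher in AMPH, as were 1.79% of all genes. The 17 natural killer and cytotoxic genes had a median of -0.41 with 15 below 0, and Prf1, the pore-forming perforin, differed by -0.61 (SE 0.27). Of that list 1 gene was higher and 4 lower at an unadjusted p of 0.05, against 6.9% and 4.77% of all genes. Summed over the 19 listed T-cell genes the counts ran from 5264 over 11605 to 19668 in AMPH and from 4428 over 7707 to 19437 in EIH, and no gene of either list was at 0 in all rats of a group.

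All 23 reticulocyte genes lay below 0, with a median of -0.48, while 51.0% of all genes lay above 0. Hba-a2, hemoglobin alpha, ran from 290753 over 501122 to 5550900 in AMPH and from 284510 over 2909020 to 12316200 in EIH (log2 fold change -1.27, SE 0.46, adjusted p = 0.307, edgeR). The 17 platelet genes had a median of -0.55 with 15 below 0, and Pf4, platelet factor 4, differed by -0.55 (SE 0.37). At an unadjusted p of 0.05, 4 reticulocyte genes and 3 platelet genes were lower and 0 were higher, against 4.77% and 6.9% of all genes. DESeq2 called none of either list. The summed counts of the 23 reticulocyte genes had medians of 1903910 in AMPH and 5868380 in EIH, and those of the 17 platelet genes 129235 and 148402. The part of these cells in the called genes was not tested, apart from the fit with the hemoglobin share.

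Neutrophil genes had a median of 0.19 over 15 tested, with 4 higher and 0 lower at an unadjusted p of 0.05, against 6.9% and 4.77% of all genes, and 3 higher in all 7 projects, against 2.32%. The summed counts of the 20 listed neutrophil genes had medians of 335926 in AMPH and 208794 in EIH, and their part in the called genes was not tested. S100a9, a calcium-binding protein that neutrophils store, ran from 95746 over 169018 to 481773 in AMPH and from 36416 over 101621 to 199512 in EIH (log2 fold change 0.67, SE 0.32, adjusted p = 0.423, edgeR). Monocyte genes had a median of 0.10 over 16, with Cd14 at 0.34 (SE 0.52) and Lyz2 at 0.03 (SE 0.34). B-cell genes had a median of -0.08 over 14, with Cd79b at -0.10 (SE 0.39), and MHC class II genes one of 0.11 over 12, with Cd74 at -0.20 (SE 0.28). Eosinophil and basophil genes had a median of -0.31 over 10. Of 7 cardiac muscle genes tested the median was -0.05, with Mb at 0.08 (SE 1.83). Over these 6 lists, 6 of 74 genes tested were higher and 4 lower at an unadjusted p of 0.05, against 6.9% and 4.77% of all genes. DESeq2 called S100a8 alone, higher in AMPH, as were 1.79% of all genes.

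The stress hormone, clock and cytokine lists had medians near 0 and 0 genes called by edgeR. Medians were 0.01 for 16 glucocorticoid-responsive genes, 0.05 for 13 clock genes, 0.02 for 15 genes of catecholamine signalling, -0.05 for 23 cytokine and NF-kB feedback genes and -0.10 for 20 immediate early genes. Anxa1, the glucocorticoid-induced annexin, differed by 0.86 (SE 0.36) and Il1b by -0.42 (SE 0.31). Of the 84 genes of these 5 lists, 7 were higher and 5 lower at an unadjusted p of 0.05, against 6.9% and 4.77% of all genes. DESeq2 called Sgk1 lower and Il1a and Socs3 higher, against 0.609% and 1.79% of all genes. Nos2, inducible nitric oxide synthase, is listed under 2 identifiers that differed by 0.17 (SE 0.43) and -0.37 (SE 0.45), so no direction can be given.

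The other 9 lists, with 325 genes tested, also held 0 called genes by edgeR. At an unadjusted p of 0.05, 11 were higher and 7 lower, against 6.9% and 4.77% of all genes. DESeq2 called Tlr5 lower and Gbp2 and Rrm2 higher, against 0.609% and 1.79% of all genes. Medians were 0.08 for 14 genes of Toll-like receptor signalling, 0.02 for 14 chemokine receptors, 0.01 for 19 adhesion molecules, -0.11 for 25 interferon-stimulated genes, -0.12 for 9 arginine metabolism genes and -0.04 for 20 metallothionein and antioxidant genes. The 23 cell-cycle genes had a median of -0.15, yet Rrm2, the small subunit of ribonucleotide reductase, ran from 2426 over 3689 to 7220 in AMPH and from 673 over 1552 to 3254 in EIH (log2 fold change 1.2, SE 0.26, adjusted p = 0.118, edgeR). A second row of that symbol in capitals, RRM2, differed by 0.72 (SE 0.27), and reads of near-identical copies may be split between them. The 99 ribosomal protein genes had a median of -0.17 and 78 lay below 0, while 51.0% of all genes lay above 0. The 102 respiratory chain genes had a median of 0.04.

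**Figure D4:**
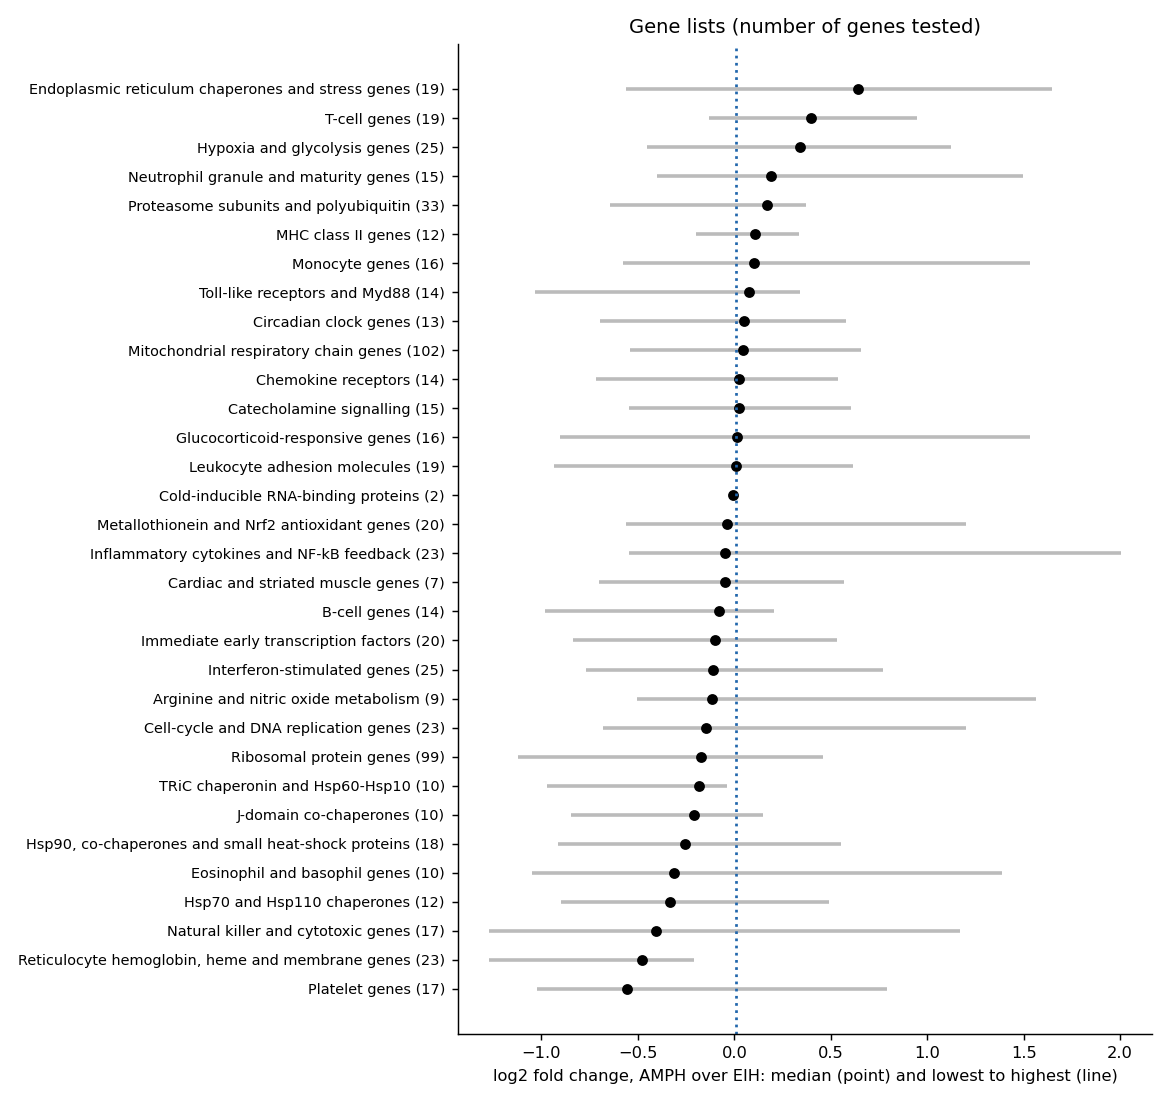
Median (point) and lowest to highest (grey line) log2 fold change of AMPH over EIH for each gene list, with the number of genes tested in brackets; the dotted line is the median of all 12157 genes. The reticulum list lies highest at 0.64 and the platelet list lowest at -0.55.

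Of the genes just outside the threshold, Abcg1, a cholesterol exporter, was lower in AMPH (log2 fold change -0.73, SE 0.14, adjusted p = 0.066, edgeR). Pir, Serpinb1a, Mif and Rfx2 were higher, with log2 fold changes of 1.34, 1.8, 0.86 and 1.18 and adjusted p-values of 0.066, 0.07, 0.0713 and 0.0958 from the same test. Serpinb1a, an inhibitor of neutrophil elastase, ran from 9111 over 15639 to 40836 in AMPH and from 1456 over 5366 to 14359 in EIH.

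The levels in the other groups of the study place the 11 genes, as a description with no test and no adjustment for project. The saline rats at 22.5 C shared no project with the comparison, and the saline rats at 16 C came from project H33741 alone. The AMPH rats at 16 C came partly from projects of the comparison and partly from others. Creld2, Pdia4 and Krt79 were high in AMPH at 22.5 C and lower elsewhere. The Creld2 median was 569 in AMPH, 209 in EIH, 169 in AMPH at 16 C, 209 in saline at 16 C and 130 in saline at 22.5 C. For Pdia4 the medians were 1491, 771, 653, 522 and 450 in the same order, and for Krt79 67.6, 5.04, 5.44, 2.00 and 0.637. Neighbouring groups other than AMPH overlapped in all 3 genes. Mb counts reached 13382 in saline at 22.5 C and 19852 in AMPH at 16 C. The study removed control rats over 5000 Mb counts, while such rats were kept in these levels.

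Ugt8, Tmco4 and St3gal4 followed another order, with EIH and saline at 22.5 C low and the cool groups high. The Ugt8 median was 155 in AMPH, 46.4 in EIH, 222 in AMPH at 16 C, 277 in saline at 16 C and 50.1 in saline at 22.5 C. Tmco4 had medians of 419, 150, 573, 1044 and 191, and St3gal4 of 3685, 1236, 4837, 4209 and 895. Enkur and 4930503B20Rik showed the same order of high and low groups. Tpi1 had medians of 6211, 3006, 4757, 3491 and 1609, and Plscr1 of 754, 159, 305, 394 and 64.6. Aplp2 stood highest in EIH, with medians of 629, 1228, 862, 750 and 641.

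Project H33741 held 1 AMPH rat at 22.5 C, 1 EIH rat, 1 AMPH rat at 16 C and the 5 saline rats at 16 C side by side. The AMPH rat at 22.5 C and the EIH rat were of the ML or JB series, and the rats at 16 C were of the FG series. Series and room temperature of 16 C cannot be told apart there. There Creld2 was 599 in the AMPH rat at 22.5 C, 242 in the EIH rat, 415 in the AMPH rat at 16 C and 153 to 374 in the saline rats. In the same order Ugt8 was 155, 64.2, 573 and 159 to 387, and Tmco4 was 255, 119, 1223 and 670 to 1704. Aplp2 was 602 in the AMPH rat at 22.5 C, 1805 in the EIH rat, 1042 in the AMPH rat at 16 C and 497 to 761 in the saline rats. That AMPH rat at 16 C held the highest Creld2 of its group, whose median was 169. In project H27649, of ML or JB rats, Creld2 was 629 and 440 in AMPH at 22.5 C and 166 and 139 in EIH. The AMPH rats at 16 C of H27649 ran from 88.4 to 231.

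**Figure D5:**
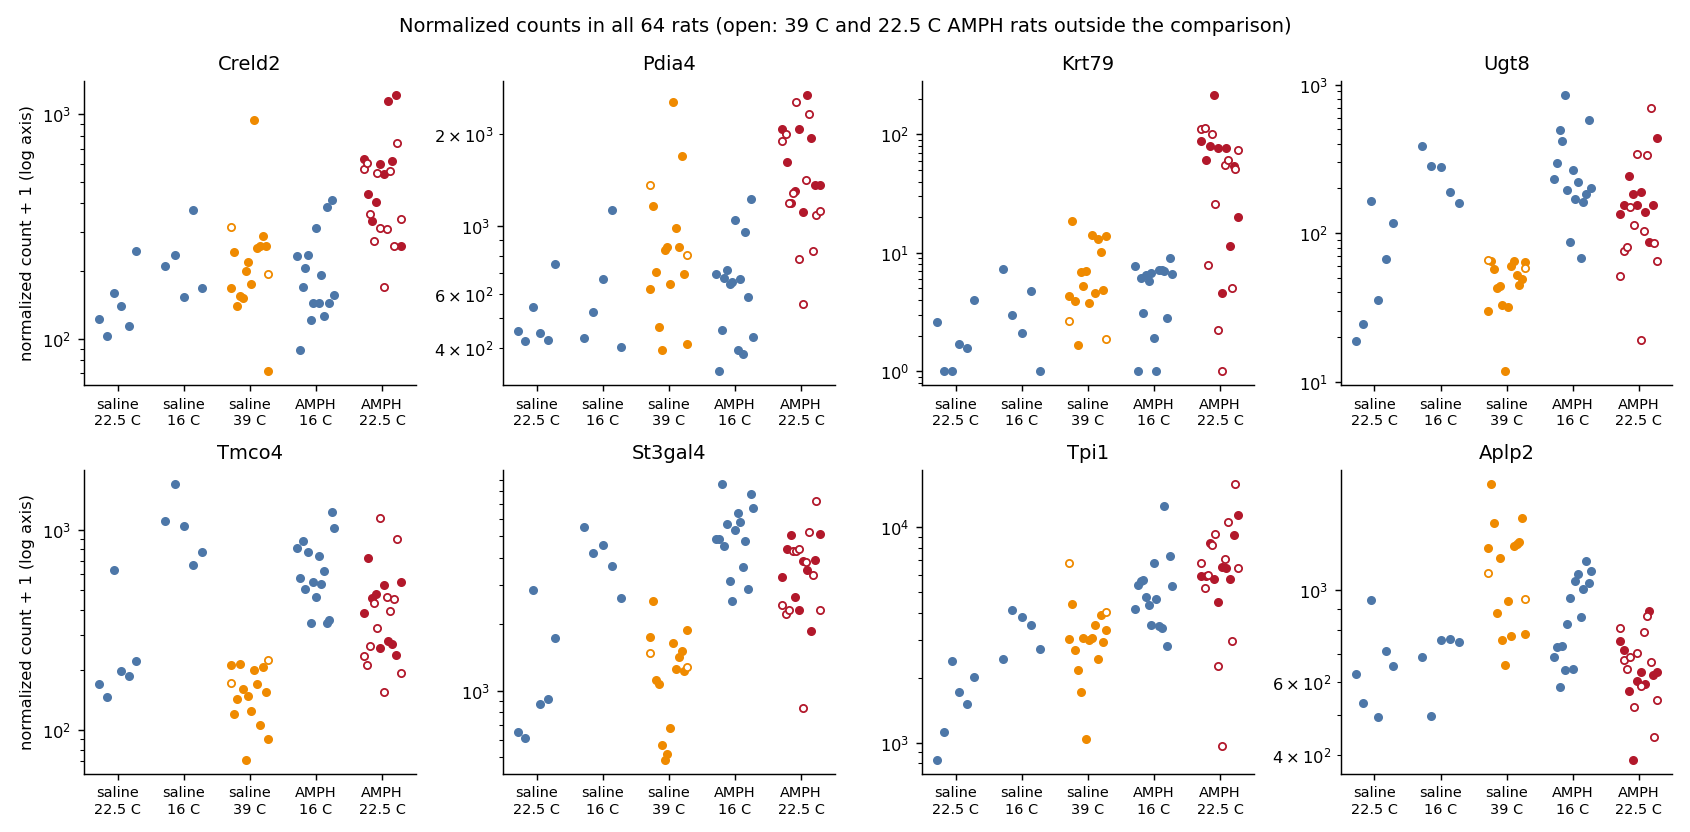
Normalized counts plus 1 (log axis) of 8 called genes in all 64 rats by group; each point is a rat, and open points are the 12 AMPH and 2 EIH rats outside the comparison. Creld2, Pdia4 and Krt79 stand highest in AMPH at 22.5 C, while Ugt8, Tmco4 and St3gal4 are also high in both 16 C groups.

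The 12 AMPH and 2 EIH rats left out give the same genes in rats that the fit did not use, with no shared project and no test. Krt79 had a median of 52.1 in the 12 AMPH rats (0 to 112) and 1.26 in the 2 EIH rats. Creld2 had medians of 349 and 252, with the AMPH rats at 168 to 740, and Pdia4 of 1233 and 1083. Ugt8 had medians of 93.8 and 61.5 with AMPH rats at 18.0 to 692. Tmco4 had medians of 358 and 198, with AMPH rats at 153 to 1151 and EIH rats at 172 and 224. Tpi1 had medians of 6654 and 5417, with AMPH rats at 959 to 15916.5 and EIH rats at 4032 and 6802. The separation in full of Ugt8, Tmco4 and Tpi1 did not extend to these rats. Aplp2 had medians of 674 and 1027, with every one of the 12 AMPH rats below both EIH rats.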

How the data were processed

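Globin-depleted blood RNA was sequenced with stranded paired-end reads. Per the study's methods and processing notes, clipped reads went through Bowtie 0.12.9 on the rat transcriptome (rn5) and RSEM 1.2.0, whose expected counts per gene the authors deposited without normalization. These expected counts were rounded to whole numbers. Files of different projects list different genes, and 17486 genes were listed in all 24 files.

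The 12157 genes that reached 10 counts in 10 or more rats were fitted with project and group in edgeR 4.0.16 (R 4.3.3; TMM, quasi-likelihood test, Benjamini-Hochberg adjustment), and DESeq2 1.42.0 was an alternative. Levels are counts over median-of-ratios size factors computed on all 64 rats. The standard error is the log2 fold change over the square root of F. The main permutation tests enumerated all 6048 arrangements within project. Without strata 100000 random permutations were drawn, and without project V06504 all 864 arrangements were enumerated.

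Named were called genes with a mean of at least 100 and the 10 largest changes in each direction, up to 4 called genes of each list or its most abundant gene where none was called, list genes without overlap, and 11 fixed genes (Hspa1b, Hspa8, Hsph1, Dnajb1, Hsp90aa1, Cirbp, Mb, Nos2, Cd14, Cd3e and Cd79b). Other genes, such as those DESeq2 called, the further reticulum genes and those nearest the threshold, were chosen after their values were seen. The comparison and the gene lists were chosen with earlier results of these data known.

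The labels number rats without saying that numbers mark shared litters or days. No pair of rats looked like 1 library deposited repeatedly (lowest chi-square per gene within a group 81.9). No rn5 genome or annotation was used here, so no positions on rn5 are given. Promoters and their positions are RefSeq's on GRCr8.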

Additional observations from a re-analysis of the deposited data

Results flagged for a closer look

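Dixon's test at the 95% level was applied to the 10 AMPH rats for 14 measures, the 11 called genes and 3 library measures. It marks about 1 in 20 groups by chance where values are normally distributed. The values were not transformed and their distribution was not tested, so that rate may not hold here. Krt79 had 1 AMPH rat at 215 normalized counts against 86.8 in the next. Ugt8 had 1 AMPH rat at 437 against 241 in the next. The hemoglobin share had 1 AMPH rat at 22.7% against 9.90% in the next, AMPH replicate 13 of project V08432, in which the EIH rat also held the highest share of its group. The Mb count had 1 AMPH rat at 977 against 101 in the next.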

How the results depend on the processing

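Each of the 11 called genes kept its sign in every fit that tested it, and every fit held rats of the comparison that called them. The count of calls was not stable: 11 (10 past an absolute log2 fold change of 1) became 292 (163) with DESeq2, 31 (22) without the project covariate, 590 (144) with all 38 rats and no project covariate, and 34 (20) without project V06504. In those fits 74.7%, 87.1%, 44.7% and 44.1% of calls were higher in AMPH, against 90.9% as reported. It became 7 (6) at a minimum of 50 counts, 3 (2) without project V08432, 16 (14) without rats over 5000 Mb counts, and 0 without the projects holding 1 rat of each group, with the hemoglobin covariate, without project H30622, in the ML and JB or the FG rats alone, and without the 3 rats over 500 Mb counts. In these fits of 0 calls by edgeR, 1356, 715, 949, 781, 918 and 1438 genes passed an unadjusted p of 0.05. With no filter it was 8 (7), and with all 38 rats and the project covariate 9 (6). The fits by ID series also left out project H30622, which held rats of both series. Those fits, the ones without H30622, V08432 or the 3 rats, and the one on 38 rats with project were chosen after seeing the data.

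Leaving out 1 rat gave 1 to 26 calls (1 to 18). The count fell to 1 without EIH replicate 1, 3, 4, 5 or 15 or AMPH replicate 4, to 2 without EIH replicate 10 or AMPH replicate 1, 6, 7 or 9, to 3 without EIH replicate 16 or AMPH replicate 13, to 4 without AMPH replicate 3 and to 7 without AMPH replicate 2, and it rose to 26 without EIH replicate 9. Ugt8 was called in all 24 of these fits and the other 10 genes in 3 to 14. The reticulum list, with 2 calls in the main comparison, had 0 to 3 calls with a median log2 fold change of 0.52 to 0.81, and 0 calls without the project covariate, 5 with DESeq2 and 6 with all 38 rats and no project covariate.

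With the replicate number as a block the 18 rats that share a number gave 3 (3) calls, and without the block 1 (1). The numbers do not pair the rats (correlations of -0.29 to 0.31, with 2 of 9 pairs above 0.1 and 1 EIH rat correlating best with its own number). No cause of these changes was tested. Mb reversed to -3.78 with all 38 rats and no project covariate, and Pf4 to 0.36 in the ML and JB rats. The hemoglobin difference was -0.95 with labels permuted without strata (permutation p = 0.0356) and -0.52 without V06504 (exact permutation p = 0.0486), neither p adjusted over the 3 tests.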
